A study of Homo sapiens with 9 samples.

Results

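The genes described here handle iron at the level of the cell: the uptake genes TFRC, STEAP3 and SLC11A2, the ferritin genes FTH1 and FTL, the ferritin receptor NCOA4, the exporter SLC40A1, and the sensors ACO1, IREB2 and FBXL5. These 10 genes were taken by symbol, matched from the Ensembl identifiers in the count tables, out of 58395 identifiers in all, and all 10 were among the 16761 genes that passed the filter on low counts. RNA-seq was performed on MDA-MB-231, an established human cell line from triple-negative breast cancer, 96 h after reverse transfection. The groups were a nontargeting control siRNA (siNC), a first siRNA against ZIP7 (siZIP7_1) and a second siRNA against ZIP7 (siZIP7_2), with 3 libraries in each and 9 in all. ZIP7 is the protein of SLC39A7, a transporter that releases zinc from the endoplasmic reticulum. All groups came from 1 cell line, without any other treatment named in the labels, and the libraries held between 24153785 and 30454419 reads on genes. Nothing in the labels says that the 3 libraries of a group came from separate cultures, so the p-values measure the spread between these libraries, which may be technical.

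Most cells take up iron by binding transferrin to the transferrin receptor (TFRC). In the endosome, STEAP3 reduces the iron and SLC11A2 (DMT1) carries it to the cytosol. There it is used, stored inside the ferritin shell built from heavy (FTH1) and light (FTL) chains, or exported by ferroportin (SLC40A1). Iron regulatory proteins (ACO1, also called IRP1, and IREB2, IRP2) bind hairpins in messenger RNAs, called iron-responsive elements. They block translation when the hairpin lies in the 5′ untranslated region (UTR) and protect the transcript when it lies in the 3′ UTR. Much of ferritin regulation is therefore at the level of translation, which RNA-seq counts do not measure. The pathway is of interest in this study because ferroptosis, the form of cell death it examined, depends on iron.

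The hairpins are shown first because they are the sequences that iron regulatory proteins read in these transcripts. The search of the reference transcripts asked for an unpaired C, 5 bases, the loop CAGTGN with a last base other than G, and 5 bases able to pair with the first 5, G-U pairs included, on the transcript's strand only. The search is strict, and a transcript without a match may still carry a hairpin of another form. A match was found in the 5′ UTR of 3 of the 10 genes (FTH1, FTL and SLC40A1) and in the 3′ UTR of 1 of the 10 (TFRC, with 4 matches). Among all genes, 22 of 18708 with a 5′ UTR (0.118%) and 101 of 19037 with a 3′ UTR (0.531%) held a match, although UTR lengths differ between genes. The sequences below are each 29 bases of GENCODE release 29 transcripts on GRCh38, 5′ to 3′, with the 6-base loop in capitals and T for U. The matched 17 bases lie at chr11:61967580-61967596 on the minus strand for FTH1, chr19:48965341-48965357 on the plus strand for FTL, and chr2:189580667-189580683 on the minus strand for SLC40A1. For TFRC they lie on the minus strand at chr3:196050469-196050485 (a), chr3:196050516-196050532 (b), chr3:196050581-196050597 (c) and chr3:196050985-196051001 (d).
FTH1 5′ UTR: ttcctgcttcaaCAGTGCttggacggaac
FTL 5′ UTR: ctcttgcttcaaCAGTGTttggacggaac
SLC40A1 5′ UTR: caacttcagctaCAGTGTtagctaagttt
TFRC 3′ UTR a: aattatcgggaaCAGTGTttcccataatt
TFRC 3′ UTR b: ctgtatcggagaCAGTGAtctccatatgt
TFRC 3′ UTR c: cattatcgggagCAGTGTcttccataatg
TFRC 3′ UTR d: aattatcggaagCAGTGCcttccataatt

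The target of the siRNAs was checked before the iron genes. SLC39A7 (ENSG00000112473, chr6:33200445-33204439, plus strand) was at 321, 343 and 322 CPM in the siNC libraries, 35.4, 32.9 and 38.6 CPM with siZIP7_1, and 20.5, 19.5 and 17.6 CPM with siZIP7_2. CPM denotes TMM-scaled counts per 1e6 reads. The mean level was thus 10.8% of siNC with siZIP7_1 and 5.84% with siZIP7_2, with no overlap between any of the groups. The log2 fold change of SLC39A7 was -3.20 with the first siRNA and -4.10 with the second, and the level was lower with siZIP7_2 than with siZIP7_1 (log2 difference -0.89, 95% interval -1.03 to -0.76). Of the genes behind the triple-negative label, the progesterone receptor gene PGR averaged at most 0.0452 CPM in any group and the oestrogen receptor gene ESR1 at most 0.501 CPM, while ERBB2 was transcribed, at 74.2 CPM in siNC. The mesenchymal marker VIM averaged 5530 CPM in the control, and 2690 and 2900 CPM after the first and second siRNA. Of the 6 markers listed for the mesenchymal state of the line, 3 were called higher and 3 lower with each siRNA. The list includes the epithelial genes EPCAM and CDH1, so these counts mix markers of opposite meaning. Of all genes tested, 34.8% were higher and 35.9% lower with siZIP7_1, and 38.5% and 39.3% with siZIP7_2. SPARC (1.69 and 3.26) and the epithelial gene CDH1 (3.14 and 1.07) rose on the log2 scale, and AXL fell (-0.14 and -0.93). CD44 (-0.81 and 1.14) and EPCAM (0.56 and -0.57) differed in direction. SPARC, with 12, 7 and 18 reads in siNC, passed the low-count filter only through its siZIP7 libraries.

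Across the 10 genes, the named changes were not of one kind. Of the 10, 6 were called changed with siZIP7_1 (2 higher and 4 lower) by the quasi-likelihood test of edgeR (Benjamini-Hochberg adjusted p under 0.05), against 70.7% of all genes tested (34.8% higher and 35.9% lower). With siZIP7_2, 7 of the 10 were called (4 higher and 3 lower), against 77.8% of all genes (38.5% higher and 39.3% lower). Between the siRNAs, 7 of the 10 were called (5 higher and 2 lower with siZIP7_2), against 78.7% of all genes (38.1% higher and 40.6% lower). The shares called in either direction were below those of the whole transcriptome, and with 10 genes the counts in each direction do not set the iron genes apart. A change of at least 1.5-fold as well was called for 2, 3 and 2 of the 10, where the shares of all genes were 38.4%, 48.1% and 50%. The median log2 fold change of the 10 genes was -0.06 with siZIP7_1 and 0.09 with siZIP7_2, beside -0.01 and -0.00 for all genes tested. The libraries of the groups compared did not overlap for 6 of the 10 genes with siZIP7_1 (all genes 72.1%) and for 8 of the 10 with siZIP7_2 (all genes 78.7%), and between the siRNAs for 6 of the 10 (all genes 79.7%). The 2 siZIP7 groups were compared with the same siNC libraries, so their values against siNC are given side by side. In bulk RNA, fewer cells with a transcript and less of it per cell cannot be told apart.

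**Figure D1:**
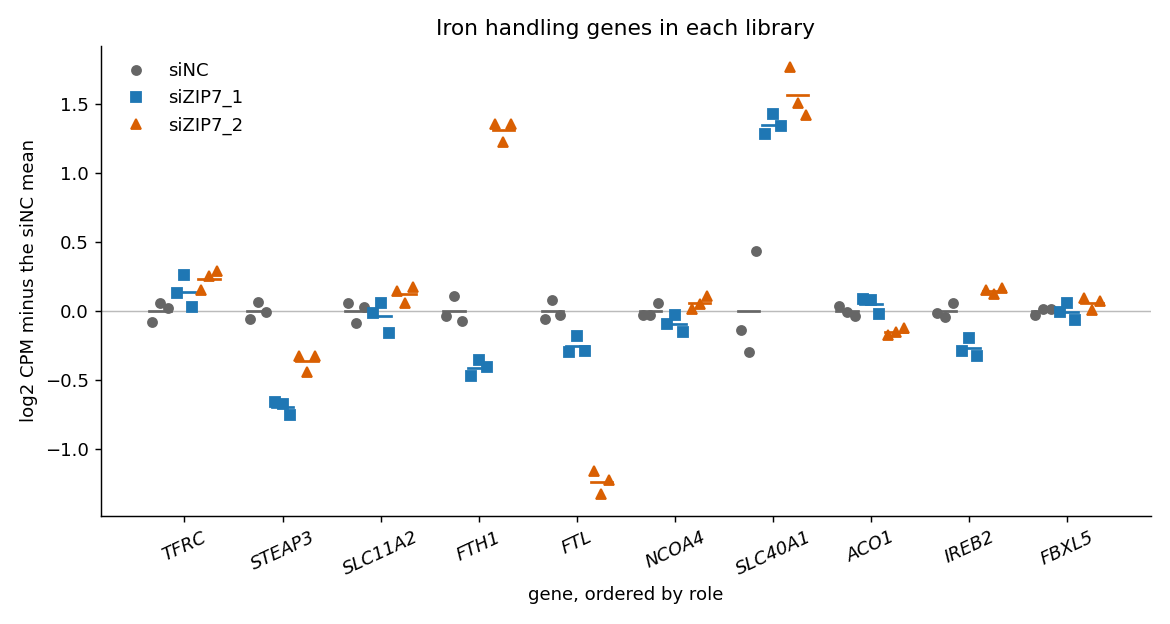
Level of each iron gene in each library, as log2 CPM relative to the siNC mean (vertical axis), for the 10 genes ordered by role (horizontal axis); points are libraries and short lines are group means. SLC40A1 lies above siNC in all 6 siZIP7 libraries, while FTH1 lies below siNC with siZIP7_1 and above it with siZIP7_2.

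The levels per kilobase of exon in the control cells set the scale. FTL was the most abundant of the 10 at 1300 RPKM (the TMM-scaled CPM per kilobase of annotated exon), followed by FTH1 at 211 RPKM. TFRC (67.2 RPKM) and NCOA4 (62.8 RPKM) came next, and their siNC libraries overlapped. STEAP3, ACO1, FBXL5 and IREB2 followed at 28.3, 26, 15.2 and 10.4 RPKM, with no overlap between neighbours. SLC11A2 was at 4.26 RPKM, and SLC40A1 was the lowest at 0.387 RPKM. With siZIP7_2 the libraries of FTL (554 RPKM) and FTH1 (522 RPKM) overlapped. The annotated exons of FTH1 span 2030 bases and its reference transcript 1229, while FTL has 878 in both. The overlap of FTL with FTH1, and that of TFRC with NCOA4, therefore hold on annotated exon lengths only. ACO1 stood above STEAP3 with siZIP7_1 (27 and 17.4 RPKM) and with siZIP7_2 (23.4 and 22 RPKM), without overlap. With siZIP7_2 this separation also holds on annotated exon lengths only, and not on transcript lengths (7466 bases for ACO1 and 4262 for STEAP3).

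Among the uptake genes, TFRC rose slightly and STEAP3 fell. TFRC (ENSG00000072274, chr3:196027183-196082189, minus strand) was at 501, 551 and 539 CPM with siNC, 580, 636 and 540 CPM with siZIP7_1, and 589, 633 and 646 CPM with siZIP7_2. The siZIP7_2 libraries were all above siNC, while 1 siZIP7_1 library fell within the siNC range. TFRC stood 0.14 higher in log2 terms (SE 0.055, adjusted p = 0.0227, edgeR) with siZIP7_1 and 0.23 higher (SE 0.055, adjusted p = 4.03e-04) with siZIP7_2. The siRNAs differed by 0.09 (95% interval -0.02 to 0.20, adjusted p = 0.139), which missed the threshold but passed under 5 of 17 other settings (range 0.03 to 0.17 over all 17). The call with siZIP7_1 was lost without the first siNC library (log2 fold change 0.10) or without the second siZIP7_1 library (0.08).

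STEAP3 (ENSG00000115107, chr2:119223831-119265652, plus strand), the endosomal ferrireductase, was at 124, 135 and 128 CPM with siNC. The siZIP7_1 libraries held 81.6, 80.7 and 76.4 CPM, and the siZIP7_2 libraries 103, 95.1 and 103 CPM. All 6 siZIP7 libraries were below all siNC libraries, and the siZIP7_1 libraries were the lowest. STEAP3 fell by 0.70 on the log2 scale with siZIP7_1 (SE 0.050, adjusted p = 3.46e-13, edgeR) and by 0.36 with siZIP7_2 (SE 0.050, adjusted p = 1.57e-07). The difference between the siRNAs was 0.34 (95% interval 0.23 to 0.44, adjusted p = 6.90e-07). A gene on the opposite strand, STEAP3-AS1, overlaps 11% of its exonic length and averaged at most 0.413 CPM in any group.

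SLC11A2 (ENSG00000110911, chr12:50979401-51028566, minus strand), which moves iron out of the endosome, was at 44.8, 40.6 and 44.1 CPM with siNC, 42.8, 45 and 38.7 CPM with siZIP7_1, and 47.7, 44.9 and 48.6 CPM with siZIP7_2. Its siZIP7_1 libraries spanned the siNC range, and its siZIP7_2 libraries lay just above it. Neither comparison passed the threshold: the log2 fold change was -0.04 with siZIP7_1 (95% interval -0.16 to 0.09) and 0.12 with siZIP7_2 (95% interval -0.00 to 0.24). The second value passed under 6 of 17 other settings, DESeq2 among them (0.15). The siRNAs differed by 0.16 (95% interval 0.04 to 0.28, adjusted p = 0.0173, edgeR), although their libraries overlapped. This call was lost under 4 of 17 other settings.

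The storage genes showed the widest split between the siRNAs. FTH1 (ENSG00000167996, chr11:61959718-61967660, minus strand), the heavy chain that oxidizes iron as it enters the shell, was at 418, 461 and 406 CPM with siNC. The siZIP7_1 libraries held 309, 335 and 323 CPM, and the siZIP7_2 libraries 1090, 1000 and 1090 CPM. All siZIP7_1 libraries were thus below siNC and all siZIP7_2 libraries above it, at 75.2% and 248% of the siNC mean. FTH1 fell by 0.41 on the log2 scale with siZIP7_1 (SE 0.053, adjusted p = 5.86e-08, edgeR) and rose by 1.31 with siZIP7_2 (SE 0.053, adjusted p = 4.75e-19). The siZIP7_1 call was lost in the test against a 1.5-fold change. The direct comparison of the siRNAs gave a difference of 1.72 (95% interval 1.61 to 1.83, adjusted p = 5.85e-22). A larger change than that of FTH1 with siZIP7_2 was seen for 18.8% of all genes tested, and than that with siZIP7_1 for 55.7%.

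FTL (ENSG00000087086, chr19:48965301-48966878, plus strand), the light chain that helps the iron core form, was at 1100, 1210 and 1120 CPM with siNC, 930, 1010 and 936 CPM with siZIP7_1, and 513, 456 and 489 CPM with siZIP7_2. Both groups were below siNC without overlap, and siZIP7_2 was the lowest, at 42.5% of the siNC mean. FTL fell by 0.26 on the log2 scale with siZIP7_1 (SE 0.052, adjusted p = 7.42e-05, edgeR) and by 1.23 with siZIP7_2 (SE 0.053, adjusted p = 1.94e-18). The siZIP7_1 call was lost in the test against a 1.5-fold change. The siRNAs differed by -0.98 (95% interval -1.09 to -0.87, adjusted p = 3.00e-16). The chains therefore moved in opposite directions with siZIP7_2, and both were lower with siZIP7_1.

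The ratio of FTH1 to FTL counts within a library does not depend on library scaling. It was 0.379, 0.38 and 0.364 with siNC and 0.332, 0.333 and 0.345 with siZIP7_1. With siZIP7_2 it was 2.12, 2.19 and 2.23. The mean log2 ratio was -1.42 ± 0.036 (SD, n = 3) with siNC, -1.57 ± 0.03 with siZIP7_1 and 1.13 ± 0.035 with siZIP7_2. The groups did not overlap in either comparison with siNC, with differences of -0.15 and 2.54 (exact permutation test, two-sided, p = 0.1 for each, the smallest that 3 libraries against 3 can give).

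The ratio of TFRC to FTH1 counts, which sets the uptake receptor against the heavy chain alone, also moved in opposite directions. FTL, the more abundant chain in siNC (1140 CPM, beside 428 CPM for FTH1), is not part of this ratio and fell with both siRNAs. The TFRC to FTH1 ratio was 1.2, 1.2 and 1.33 with siNC, 1.88, 1.9 and 1.67 with siZIP7_1, and 0.54, 0.633 and 0.593 with siZIP7_2. All siZIP7_1 libraries were above siNC and all siZIP7_2 libraries below it, by 0.55 and -1.08 on the log2 scale (exact permutation test, two-sided, p = 0.1 for each, again the smallest possible).

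**Figure D2:**
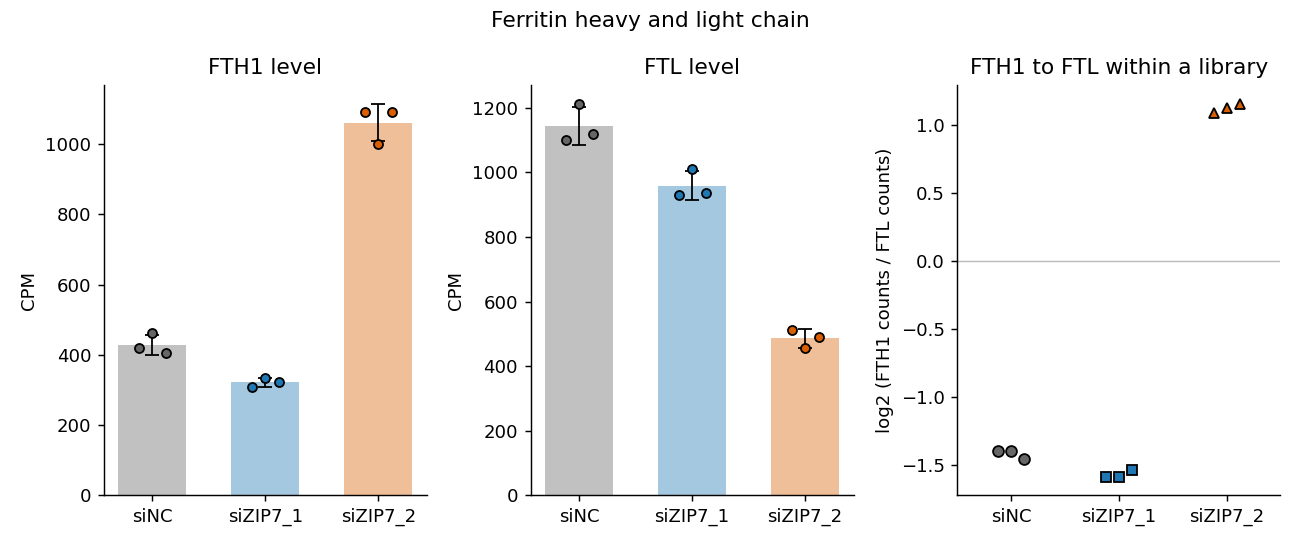
CPM of FTH1 and FTL (left and middle; bars are means, error bars are SD over 3 libraries, points are libraries) and the log2 ratio of FTH1 to FTL counts within each library (right) in the 3 siRNA groups. With siZIP7_2, FTH1 was near 1060 CPM and FTL near 486 CPM, so the mean log2 ratio was 1.13 instead of -1.42 in siNC.

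Ferritin genes have many near-identical copies, and reads with several alignments were absent from the counts. Of the 50-base windows of the FTH1 transcript, 40.4% also occurred in transcripts of other genes (16 genes), and of those of FTL 18.3% (FTLP2 and FTLP3), so reads from those windows may be missing from the counts; the read length is not stated. Of 25 annotated FTH1 pseudogenes 18 had counts, which summed to between 54 and 194 reads per library, or 0.495% to 0.739% of the FTH1 count. Of 16 FTL pseudogenes 9 had counts, which summed to 14 to 40 reads, or 0.0857% to 0.149% of the FTL count. With these counts added to their parents, both ferritin genes kept their direction and call with each siRNA. BEST1 lies on the opposite strand and overlaps 62.4% of the FTH1 exonic length. It averaged 1.00, 1.07 and 4.50 CPM in siNC, siZIP7_1 and siZIP7_2, or 0.168% to 0.46% of the FTH1 count in a library. The counting used strand, since 404 of 726 genes covered by an opposite-strand gene (55.6%) had reads, against 18 of 1009 covered by a gene on the same strand (1.78%).

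NCOA4 (ENSG00000266412, chr10:46005088-46030714, minus strand), the receptor that delivers ferritin to the lysosome for iron release, was at 251, 251 and 266 CPM with siNC, 240, 251 and 230 CPM with siZIP7_1, and 258, 265 and 276 CPM with siZIP7_2. The siZIP7_1 libraries lay below those of siNC by a margin hidden by rounding in 1 of them, and the siZIP7_2 libraries overlapped siNC. Neither comparison with siNC passed the threshold, with log2 fold changes of -0.09 (95% interval -0.19 to 0.00) and 0.06 (95% interval -0.04 to 0.15). The intervals keep any change of the NCOA4 transcript well under that of either ferritin chain with siZIP7_2. The first value passed without the second siZIP7_1 library (-0.13). The siRNAs differed by 0.15 (95% interval 0.05 to 0.25, adjusted p = 0.0055, edgeR), a call that was lost under 3 of 17 other settings.

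SLC40A1 (ENSG00000138449, chr2:189560579-189583758, minus strand), the iron exporter of mammalian cells, rose with both siRNAs from a low level. Its libraries held 41, 31 and 62 reads with siNC, 109, 128 and 132 reads with siZIP7_1, and 143, 141 and 114 reads with siZIP7_2. In CPM these were 1.49, 1.33 and 2.21, then 3.97, 4.40 and 4.14, then 5.55, 4.64 and 4.38, where the floor of 3 reads was 0.0985 to 0.124 CPM. All 6 siZIP7 libraries were above all siNC libraries, and the third siNC library was the highest of its group. SLC40A1 rose by 1.30 on the log2 scale with siZIP7_1 (SE 0.17, adjusted p = 6.47e-08, edgeR) and by 1.51 with siZIP7_2 (SE 0.16, adjusted p = 2.07e-09). The siRNAs differed by 0.22 (95% interval -0.06 to 0.50, adjusted p = 0.15), and a larger change was seen for 14% of all genes with siZIP7_1 and 14.5% with siZIP7_2. A filter was modelled on the study's rule of a 1.8-fold change from the siNC mean in 4 libraries; the scale, log2(CPM + 1), and one direction were chosen here, so it need not select the study's genes. SLC40A1 was the only one of the 10 to pass, in 6 of 6. Of all genes, 2.8% passed upward and 2.88% downward. FTH1 passed 1.8-fold upward, and FTL downward, in the 3 siZIP7_2 libraries each and in no siZIP7_1 library.

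Of the sensors, IREB2 split between the siRNAs as FTH1 did, at a smaller size. IREB2 (ENSG00000136381, chr15:78437431-78501456, plus strand), the iron regulatory protein that is degraded when iron is high, was at 111, 109 and 117 CPM with siNC. The siZIP7_1 libraries held 91.7, 98.0 and 89.8 CPM, and the siZIP7_2 libraries 125, 122 and 126 CPM. All libraries of the former were below siNC and all of the latter above it. IREB2 stood at -0.27 on the log2 scale (SE 0.048, adjusted p = 1.14e-05, edgeR) with siZIP7_1 and 0.15 (SE 0.048, adjusted p = 0.00594) with siZIP7_2, and the siRNAs differed by 0.42 (95% interval 0.32 to 0.52, adjusted p = 4.41e-09). The call with siZIP7_2 was lost without a low-count filter (0.10) and in the test against a 1.5-fold change.

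ACO1 (ENSG00000122729, chr9:32384603-32454769, plus strand), the other iron regulatory protein and a cytosolic aconitase when it carries an iron-sulphur cluster, was at 202, 196 and 192 CPM with siNC, 209, 208 and 194 CPM with siZIP7_1, and 174, 177 and 181 CPM with siZIP7_2. All siZIP7_2 libraries were below the siNC range, while the siZIP7_1 libraries overlapped it, with 2 of them above it. ACO1 fell by 0.15 on the log2 scale with siZIP7_2 (SE 0.046, adjusted p = 0.00433, edgeR), a call that was lost with upper-quartile scaling (-0.04), with at least 10 counts in every library (-0.08) and in the test against a 1.5-fold change. With siZIP7_1 its log2 fold change was 0.05 (95% interval -0.04 to 0.15).

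FBXL5 (ENSG00000118564, chr4:15604539-15681679, minus strand), the iron-binding subunit of the ubiquitin ligase that degrades IREB2, was at 68.4, 70.3 and 70.3 CPM with siNC, 69.4, 72.4 and 66.5 CPM with siZIP7_1, and 74.4, 70.0 and 73.3 CPM with siZIP7_2. The groups overlapped in both comparisons. Its log2 fold change was -0.01 (95% interval -0.11 to 0.10) and 0.06 (95% interval -0.04 to 0.16).

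The small changes of the group depended on the scaling of the libraries. With upper-quartile scaling the log2 fold changes of all genes with siZIP7_2 moved by 0.106, and 7 of the 10 genes were then called higher in place of 4, with NCOA4, SLC11A2 and FBXL5 added, while of all 16761 genes 7256 were called higher in place of 6450. Those 3 genes stood at 0.16, 0.23 and 0.16 there, against 0.06, 0.12 and 0.06 with TMM scaling. FTH1, FTL and SLC40A1 kept their calls with siZIP7_2 under every setting tried.

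**Figure D3:**
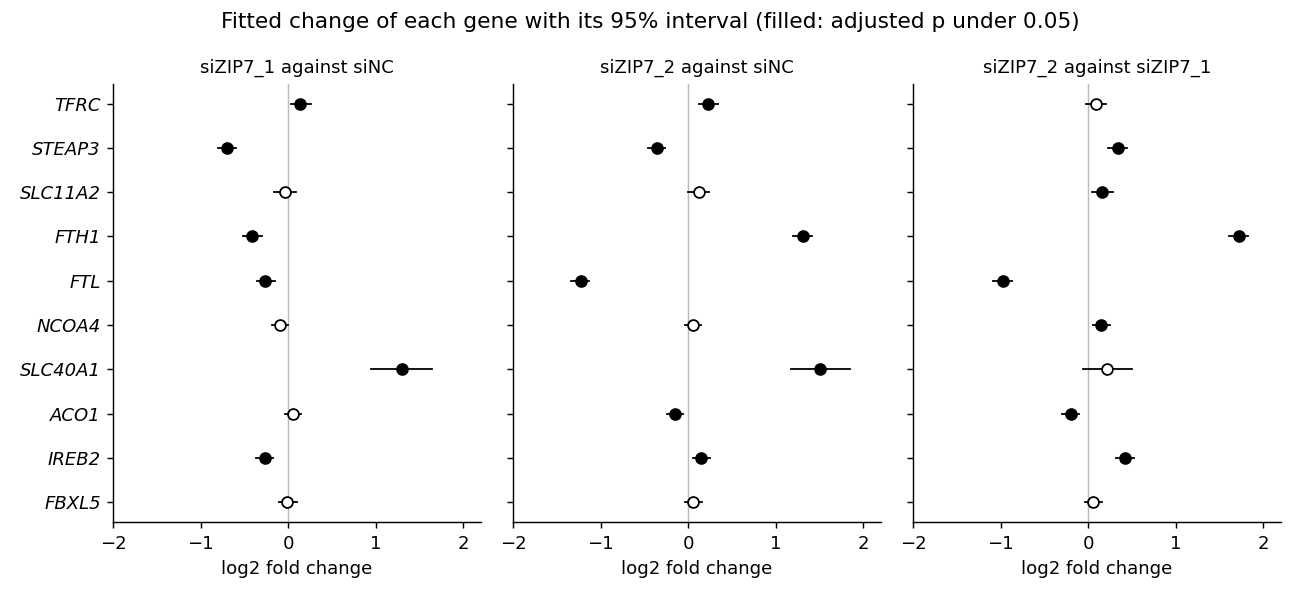
Fitted log2 fold change (horizontal axis) of the 10 genes for siZIP7_1 against siNC, siZIP7_2 against siNC and siZIP7_2 against siZIP7_1, with 95% intervals as lines and filled points for an adjusted p under 0.05. FTH1 stands at -0.41, 1.31 and 1.72 in the 3 comparisons, and FTL at -0.26, -1.23 and -0.98.

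The genes with patterns most like those of TFRC, FTH1 and FTL were found by the Euclidean distance of log2 CPM, relative to siNC, over the 9 libraries. For FTH1 they were DOCK4 (distance 0.259), MGLL (0.271) and GNG11 (0.303), with log2 fold changes of -0.40, -0.42 and -0.36 with siZIP7_1 and 1.25, 1.20 and 1.19 with siZIP7_2. For FTL they were PAQR4 (0.135), JMJD4 (0.138) and C19orf70 (0.157). For TFRC they were LAPTM4B (0.105), LUC7L2 (0.15) and DDX3X (0.153).

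The wider iron pathway was read from 8 further lists of 90 genes, of which 77 were tested. Of the 77, 20 were higher and 42 lower with siZIP7_1, and 26 were higher and 38 lower with siZIP7_2. As shares of the 77 these were 26% and 54.5%, then 33.8% and 49.4%, where 34.8% and 35.9%, then 38.5% and 39.3%, of all genes tested were called higher and lower. In haem synthesis, 4 of 8 genes tested fell and 2 rose with siZIP7_1, and 6 fell and 1 rose with siZIP7_2 (all genes: 35.9% lower and 34.8% higher, then 39.3% and 38.5%). The medians were -0.28 and -0.61. FECH, which inserts iron into the ring, was lower (-0.47 and -1.26), as was UROS (-0.72 and -0.54). ALAS1, the first and rate-limiting enzyme outside red cells, rose instead, by 0.43 and 0.79.

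Haem breakdown and transport had 6 of 11 genes higher and 3 lower with siZIP7_1, and 5 higher and 5 lower with siZIP7_2, beside 34.8% and 35.9%, then 38.5% and 39.3%, of all genes. BACH1, a repressor that haem releases from DNA, was at 72.8 ± 4.26 CPM in siNC and rose to 194 ± 7.12 and 151 ± 3.65 CPM (log2 fold change 1.41 and 1.05, SE 0.050 each). HMOX1, the haem oxygenase that frees iron from haem and that BACH1 is known to repress, was at 15.9 ± 0.683 CPM and rose to 26.7 ± 1.85 and 38.8 ± 3.27 CPM (0.75 and 1.28). FLVCR2, a membrane transporter, rose by 1.31 and 1.34 from 0.521 CPM. ABCG2, which can export porphyrins, was lower (-1.20 and -1.23), as was the biliverdin reductase BLVRA (-0.51 and -0.63).

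Mitochondrial iron and iron-sulphur cluster genes are read beside 35.9% of all genes called lower with siZIP7_1 and 39.3% with siZIP7_2, and 34.8% and 38.5% called higher. Of 6 mitochondrial iron genes tested, 5 fell with siZIP7_1 and 4 fell and 1 rose with siZIP7_2, with medians of -0.32 and -0.43. The inner membrane transporters ABCB10 (-0.34 and -1.08) and ABCB8 (-0.18 and -1.21) fell. Of the 25 iron-sulphur cluster genes, 15 fell and 7 rose with siZIP7_1, and 15 fell and 5 rose with siZIP7_2. BOLA3 (-0.77 and -1.25), the co-chaperone HSCB (-0.31 and -1.44) and LYRM4, a partner of the cysteine desulphurase (-0.62 and -0.87), fell with both. ISCU, the scaffold on which clusters are built, rose by 0.26 and 0.79, FDXR by 0.24 and 0.72, and GLRX5 by 0.39 and 0.34.

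In iron uptake, 7 of 11 genes tested fell and 3 rose with siZIP7_1, and 4 fell and 5 rose with siZIP7_2. Of all genes, 35.9% fell and 34.8% rose with the first, and 39.3% and 38.5% with the second, so the siZIP7_2 counts were near the background. HFE, which binds TFRC, fell from 19.1 ± 0.565 CPM to 7.78 ± 0.489 and 4.99 ± 0.413 CPM (log2 fold change -1.30 and -1.93). The metalloreductases STEAP1 (-1.68 and -0.80) and STEAP2 (-1.25 and -0.88) fell with both. MCOLN1, a lysosomal channel that passes iron, rose by 0.45 and 0.47. SLC39A14, a plasma membrane importer of zinc and iron, and LCN2, a protein that binds siderophores, were chosen after their values were seen. SLC39A14 was at 212 ± 2.6 CPM in siNC, 70.3 ± 2.37 with siZIP7_1 and 287 ± 8.39 with siZIP7_2, and the siRNAs differed by 2.03 (adjusted p = 6.91e-25, edgeR). LCN2 had 19, 11 and 12 reads with siNC, 4, 9 and 7 with siZIP7_1, and 549, 506 and 542 with siZIP7_2.

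Of the other lists, iron export and its hormone axis had 6 genes tested, of which CP, with 1, 2 and 5 reads in siNC, passed the low-count filter only through its siZIP7_2 libraries (11, 18 and 15 reads) and is 1 of the 26 wider genes counted as higher there. Of the other 5, 3 were lower with siZIP7_1 and 4 were higher with siZIP7_2. For these small lists the shares of all genes were 35.9% lower and 34.8% higher with siZIP7_1, and 39.3% and 38.5% with siZIP7_2. BMP6 and BMPR2 were chosen after their values were seen. BMP6, which induces hepcidin in liver, had log2 fold changes of -1.49 and 1.29 with the first and second siRNA, and its receptor gene BMPR2 had -1.14 and 0.22. Iron chaperones and ferritin turnover had 3 of 6 lower and 1 higher, then 4 lower and 1 higher. PCBP2, an iron chaperone and RNA-binding protein, was lower (-0.21 and -0.69). Of 4 other iron-responsive element transcripts tested, 2 were lower and 1 higher with siZIP7_1, and 3 were higher with siZIP7_2. CDC42BPA rose by 0.13 and 0.46.

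**Figure D4:**
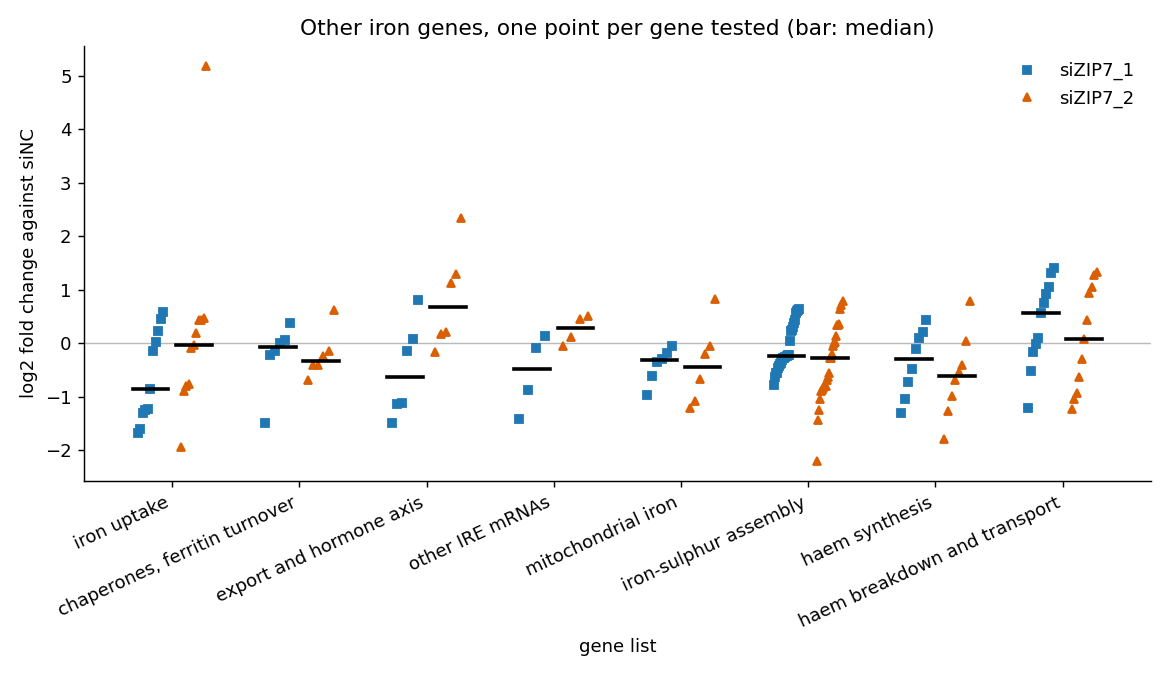
Fitted log2 fold change against siNC (vertical axis) of each tested gene in the 8 further iron lists (horizontal axis), with squares for siZIP7_1, triangles for siZIP7_2 and black bars for list medians. The medians of haem synthesis are -0.28 and -0.61; the highest point is LCN2 with siZIP7_2 at 5.19.

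Cell types that handle much iron were looked for by their markers. The summed level of 6 erythroid markers was at most 0.164 CPM in a library, and HBA1 and HBA2 were at 0 in all 9. The sum of 5 macrophage markers was 8.37 to 9.49 CPM in siNC, 2.2 to 2.74 CPM with siZIP7_1 and 18.7 to 25.3 CPM with siZIP7_2. CSF1R was the most abundant in siNC (4.15 CPM), CD68 with siZIP7_1 (0.982 CPM) and CD14 with siZIP7_2 (10 CPM), and CD163 was at or below 0.0644 CPM on average. Of the 5, 3 fell and 1 rose with siZIP7_1 (all genes 35.9% and 34.8%), and 2 rose with siZIP7_2 (all genes 38.5%). PTPRC, which marks all leukocytes, averaged 0.402, 0.875 and 0.327 CPM. The sum of 5 hepatocyte markers was at most 2.57 CPM. The macrophage sum ordered the groups as FTH1 did, but not every marker in it did so. PTPRC was highest with siZIP7_1, and CD68 averaged 2.57 CPM in both siNC and siZIP7_2. The part of the macrophage sum in the FTH1 result was not tested. The share of reads outside annotated genes was 7.43% to 8.28% in siNC, 7.8% to 9.62% with siZIP7_1 and 9.99% to 11.5% with siZIP7_2, and its part in these results was likewise not tested.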

How the data were processed

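RNA-seq was analysed for 9 libraries of MDA-MB-231 cells. For every library the authors deposited unnormalized counts, the number of reads assigned to each Ensembl gene. The submitters' processing notes name Trim Galore 0.4.1, FastQC 0.11.2, STAR, HTSeq 0.6.1 and DESeq2 1.16.1. The genome build is not given in the sources used here, and GENCODE release 29 of GRCh38, which held 58275 of the 58395 identifiers, gave symbols, positions and lengths. Summary lines of the counting program were left out: 7.43% to 11.5% of reads lay outside genes and 2.66% to 2.91% were ambiguous.

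Counts were fitted in R 4.3.3 with edgeR 4.0.16 (TMM, low-count filter, quasi-likelihood test, Benjamini-Hochberg threshold 0.05) in one fit of the 3 groups, which left 16761 genes and 6 residual degrees of freedom. The SE was taken as the absolute log2 fold change over the square root of F. A floor of 3 counts was used. Floors and intervals of counts cover counting error only. Alternatives were DESeq2 1.42.0, other scalings and filters, fits to 2 groups, glmTreat at 1.5-fold, a replicate block and each library left out. The steps were tested on simulated data.

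The 10 genes and the lists were chosen with earlier results of these data known. Named genes were SLC39A7, the 10 genes, the up to 3 genes per direction of each further list with the largest mean log2 fold change among those averaging 1 CPM or more and called the same way with both siRNAs, and the 3 nearest patterns of TFRC, FTH1 and FTL. SLC39A14, LCN2, BMP6, BMPR2, NEO1, CP and HAMP lie outside this rule and were chosen after their values were seen. Some genes that this rule or the marker lists hold are not reported here.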

Additional observations from a re-analysis of the deposited data

Results flagged for a closer look

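FTH1 and IREB2 stood out because every siZIP7_1 library was below every siNC library and every siZIP7_2 library above it, and the direct test of the siRNAs passed the threshold. The difference of siZIP7_2 from siZIP7_1 was 1.72 on the log2 scale for FTH1 and 0.42 for IREB2 (edgeR, adjusted p = 5.85e-22 and 4.41e-09). Of all genes tested, 78.7% were called between the siRNAs. Genes of the wider lists, such as SLC39A14 (-1.59 and 0.44 against siNC) and NEO1 (-1.11 and 1.13), chosen after their values were seen, split in the same way. Of the 77 wider genes tested, 20 (26%) were called in opposite directions with the siRNAs, beside 2 of the 10 (20%). A split therefore does not set FTH1 and IREB2 apart from the wider iron genes. The share of all genes with such a split is not given here, so no comparison with it is made.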

How the results depend on the processing

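FTH1 and FTL kept their direction and call with siZIP7_2 under all 18 alternatives (1.26 to 1.42 and -1.29 to -1.13), and SLC40A1 with each siRNA under all 17 (1.18 to 1.57 and 1.39 to 1.78). The test against a 1.5-fold change left 4636 genes (2322 higher and 2314 lower) for siZIP7_1, 6420 (3351 and 3069) for siZIP7_2 and 6810 (3485 and 3325) for the siRNAs against each other. It left 1 iron gene higher and 1 lower, 2 and 1, and 1 and 1 of the 10, and of the wider genes 5 higher and 17 lower, 12 and 24, and 15 and 15. The iron genes left were SLC40A1 and STEAP3 with siZIP7_1, and SLC40A1, FTH1 and FTL with siZIP7_2. Between the siRNAs they were FTH1 and FTL, and all other calls among the 10 were lost in this test. With siZIP7_2, 7 of the 10 were higher with upper-quartile scaling (7256 of 16761 genes in all) and also with at least 10 counts in every library (5506 of 13820). Between the siRNAs, 3 were higher without a low-count filter (7164 of 33487 genes in all). With each library left out, the genes higher of the 10 numbered 1 to 2 with siZIP7_1, 4 to 5 with siZIP7_2 and 3 to 6 between the siRNAs. Leaving out the third siZIP7_1 library gave the 3 (6325 of 17129 genes in all). Of the 17034 to 17286 genes tested in these fits, 5560 to 5948, 6304 to 6635 and 6212 to 6533 were called higher in the same comparisons. SLC11A2 with siZIP7_1 ranged from -0.0874 to 0.0231 with a library left out, and turned without the third siZIP7_1 library. FBXL5 with siZIP7_1, which was not called, turned to 0.0206 with upper-quartile scaling, 0.0181 with at least 10 counts and 0.0033 with only the 2 groups compared, and ranged from -0.0362 to 0.0273 with a library left out. The cause of these changes was not tested.

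Replicate numbers did not pair the libraries: same-numbered libraries of different groups had a mean correlation of deviations of 0.0115 (-0.0493 to 0.0754). With the replicate block, 11927, 13080 and 13242 genes were called. Depth limits SLC40A1 most, with 31 reads in its lowest library.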

Other observations

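Some genes of iron export and its hormone axis were at or near the floor in these cells. HAMP, the hepcidin gene, averaged 0.0242, 0.0121 and 0.387 CPM in siNC, siZIP7_1 and siZIP7_2 and was not tested. CP, the plasma ferroxidase ceruloplasmin, averaged 0.1, 0.179 and 0.532 CPM.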
